A study of Mus musculus with 6 samples.

Results

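Clustered histone genes encode the proteins around which DNA is wound. They were taken here as the protein-coding genes of the mouse annotation GENCODE M21 whose symbols start with Hist1h, Hist2h, Hist3h or Hist4h. The rule gave 67 genes, out of 35458 genes to which transcripts of the deposited files could be matched. There were 6 genes for the linker histone H1, 18 for H2A, 18 for H2B, 12 for H3 and 13 for H4. The Hist1 cluster on chromosome 13 held 54 of them, the Hist2 cluster on chromosome 3 held 10, the Hist3 cluster on chromosome 11 held 2 and the Hist4 locus on chromosome 6 held 1.

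RNA came from fetal hearts of wild-type FVB/NJ mice, in 3 pools from dams that inhaled nano-sized titanium dioxide (nano-TiO2) and 3 pools from sham-exposed dams. The nano-TiO2 aerosol had a target of 12 mg/m3 and was given for 360 minutes a day on 6 non-consecutive days within 8 days, starting at gestational day 5, and the sham dams had filtered room air. Hearts were collected at gestational day 15 and pooled over male and female fetuses. In all, 14 dams aged 10 weeks entered the study. How many litters went into a pool is not given in the sources used here, so p-values measure the spread between pools. The libraries are the antibody-free inputs of an m6A immunoprecipitation experiment, made from 3 µg of fragmented RNA per sample. They held 15197916, 12881945 and 21553478 estimated reads in nano-TiO2 pools 1 to 3, against 22720009, 17152365 and 22588977 in sham pools 1 to 3.

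Most clustered histone genes are switched on in S phase, when new DNA has to be packaged, through the coactivator NPAT in a nuclear body at the gene clusters. Their messages are the known exception to polyadenylation. The 3′ end is cut just after a short stem-loop that binds the protein SLBP, with the help of the U7 small nuclear RNP, and the mRNA is degraded when replication stops. Some members can also be spliced or polyadenylated at a site further downstream, above all in cells that have stopped dividing, and these transcripts do not depend on S phase. How reverse transcription was primed in these libraries is not given in the sources used here.

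The stem-loop was searched for on the transcript strand of the annotated transcripts, as GG, any 2 bases, CTTTT, any base, AG, any 2 bases and CC. It was present in 44 of the 67 histone genes and in 28 of 21834 other protein-coding genes, or 0.128% of them. A gene without a match has no such letters in its annotated transcript, which for many members ends with the coding region. The windows below, from GENCODE M21 on GRCm38, are shown because the results turn on these genes. Capitals mark the stem-loop, and the 14 bases before it are in lower case.
Hist1h1e: cccaacaacccaaaGGCTCTTTTCAGAGCC
Hist1h1c: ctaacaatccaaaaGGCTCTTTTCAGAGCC
Hist1h2ap: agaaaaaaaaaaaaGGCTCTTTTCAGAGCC
Hist1h2ao: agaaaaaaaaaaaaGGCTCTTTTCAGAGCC
Hist1h2ae: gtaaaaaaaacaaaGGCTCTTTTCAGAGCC
Hist2h2aa1: cgagctcctaaaaaGGCTCTTTTCAGAGCC
Hist3h2a: ttacagacaccaaaGGCTCTTTTCAGAGCC
Hist1h4d: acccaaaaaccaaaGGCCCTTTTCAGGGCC
Hist4h4: cccccatccacaaaGGCCCTTTTCAGGGCC
The H1 and H2A genes shown share the loop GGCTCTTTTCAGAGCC, whereas both H4 genes have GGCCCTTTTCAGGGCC. In Hist1h2ap and Hist1h2ao an unbroken run of 12 A stood directly against the stem-loop. Among the other members with a stem-loop, the longest A run of Hist1h2ae was 8 bases, and that of Hist1h2ac was 15 bases but lay far downstream of the loop.

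Across the 67 genes the test showed one direction. Estimated reads per gene were tested with edgeR's quasi-likelihood test after TMM scaling, and a gene passed with a Benjamini-Hochberg adjusted p under 0.05 over all 13930 genes tested. Of the 67 histone genes, 31 had enough reads to be tested. The count of histone genes that were lower in nano-TiO2 hearts was 10, and none was higher. The same test called 12.8% of all genes lower and 15.5% higher. At an unadjusted p under 0.05, 12 histone genes were lower and 1 was higher, but all genes were not counted at that threshold. DESeq2 and limma-voom each also called 10 histone genes lower and 0 higher. DESeq2 called 16.5% of all genes lower and 17.8% higher, and limma-voom 12.9% lower and 15.3% higher. The median log2 fold change of the tested histone genes was -0.90, and that of all tested genes was -0.01. The groups did not overlap, nano-TiO2 below sham, for 16 of the 31 genes, a state that 22.4% of all tested genes shared. In bulk tissue, fewer cells in S phase and less histone RNA per cell cannot be told apart, and neither was tested. Lower calls were also frequent among short genes of high GC content in general, as given below.

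**Figure D1:**
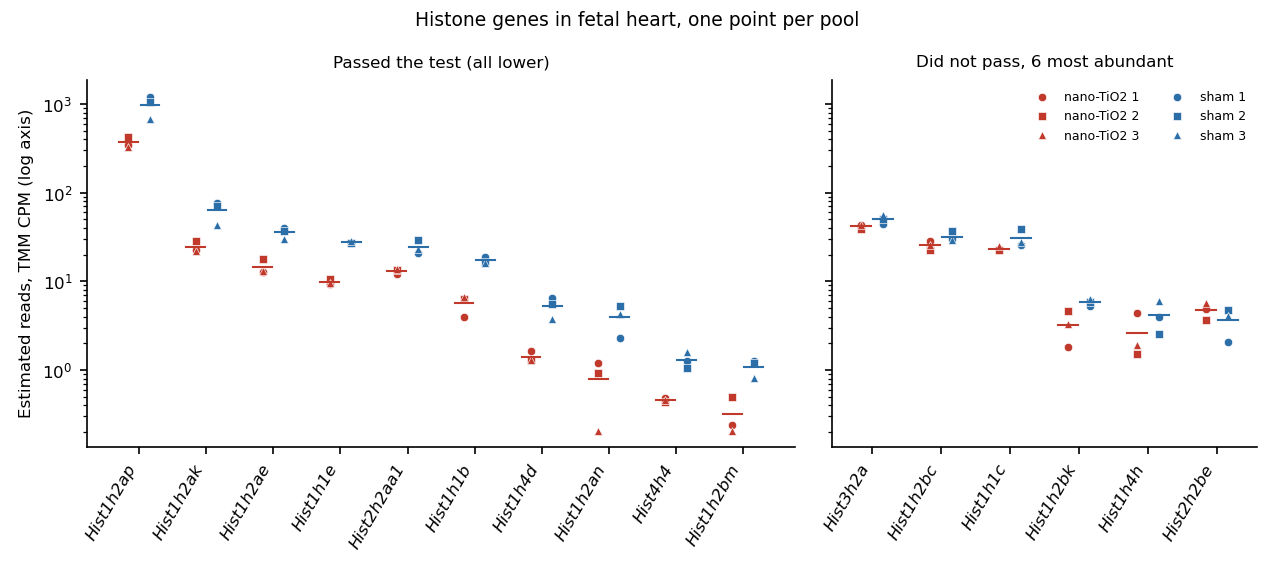
Level of single histone genes in each pool, in TMM-scaled CPM of estimated reads on a log axis, with nano-TiO2 pools in red to the left and sham pools in blue to the right, and a line at each group mean. The left panel has the 10 genes that passed the test, where every nano-TiO2 pool lies below every sham pool, and the right panel the 6 most abundant of those that did not pass.

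Linker histone H1 binds the DNA that enters and leaves the nucleosome, and its somatic subtypes are encoded by separate Hist1 genes. Hist1h1e, which encodes subtype H1.4, had 9.23, 10.7 and 9.67 CPM in the nano-TiO2 pools, against 27.1, 27.2 and 28.9 CPM in the sham pools. All sham pools were therefore far above all nano-TiO2 pools, with little spread within either group. Its log2 fold change was -1.49 (SE 0.15, edgeR adjusted p = 0.0063). Hist1h1b, which encodes H1.5, had 4.01, 6.25 and 6.70 CPM in nano-TiO2 pools and 18.8, 16.8 and 16.1 CPM in sham pools. Nano-TiO2 pool 1 was the lowest of the 6, and the groups again did not overlap. Its log2 fold change was -1.60 (SE 0.23, edgeR adjusted p = 0.00645).

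Hist1h1c, which encodes H1.2, was the most abundant H1 gene by reads and did not pass. Its level was 22.8, 22.6 and 24.9 CPM in nano-TiO2 pools, against 25.6, 39.2 and 27.9 CPM in sham pools. The groups were separated only narrowly, and sham pool 2 stood above the other two. The log2 fold change was -0.39 (SE 0.19, edgeR adjusted p = 0.147). On the TPM scale, which divides by transcript length and is a share of all transcripts, the direction turned: Hist1h1c averaged 22.3 ± 2.38 TPM in nano-TiO2 and 18.2 ± 1.52 TPM in sham hearts (SD, n = 3 each). Hist1h1a, with 29 estimated reads over the 6 libraries, and Hist1h1d, with 55.2, were not tested. The testis gene Hist1h1t had under 10 estimated reads.

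The promoter of Hist1h1e is shown because both H1 genes that passed hold the same motifs in theirs. It comes from RefSeq on GRCm38.p6, at chr13:23622509-23622808 on the minus strand, from 250 bases before the gene start to 50 after it. Capitals mark AAACACA, known as the H1 box, then CCAAT, which binds the factor NF-Y, and the TATA box TATAAA, all searched on both strands.
Hist1h1e promoter: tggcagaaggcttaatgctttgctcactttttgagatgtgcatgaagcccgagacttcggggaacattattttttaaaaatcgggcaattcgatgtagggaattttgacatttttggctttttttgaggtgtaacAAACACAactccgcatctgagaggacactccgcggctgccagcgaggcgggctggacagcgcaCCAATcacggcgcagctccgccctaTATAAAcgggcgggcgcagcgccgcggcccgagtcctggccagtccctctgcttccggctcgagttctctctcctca
Promoter windows were found for 62 of the 67 genes. AAACACA was present in 5 of the 6 H1 promoters, in 9 of the 62 histone promoters and in 7.14% of 27025 promoters of all genes. CCAAT was present in 53 of the 62, with all 18 H2A and all 16 H2B promoters among them but 3 of 12 H4 promoters, against 37.9% of all promoters. TATAAA was present in 35 of the 62 and in 14.2% of all promoters. These letter matches say nothing about binding in these hearts, and Hist1h1c, which did not pass, is also an H1 gene.

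H2A pairs with H2B in the nucleosome core, and Hist1h2ap dominated its class. It drew 82.6% of the estimated H2A reads and 72.0% of those of all 67 genes. Its level was 348, 427 and 331 CPM in nano-TiO2 pools, against 1211, 1059 and 686 CPM in sham pools. Sham pool 1 was the highest and sham pool 3 the lowest of the sham pools, yet still above every nano-TiO2 pool. The mean was 369 ± 51.1 CPM in nano-TiO2 and 985 ± 270.4 CPM in sham hearts (SD, n = 3 each), with a log2 fold change of -1.42 (SE 0.21, edgeR adjusted p = 0.00716). On the TPM scale the values were 1588, 2608 and 1687 TPM in nano-TiO2 pools against 4390, 2867 and 2188 TPM in sham pools, so that nano-TiO2 pool 2 lay above sham pool 3.

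The assignment of reads to single H2A copies is uncertain. Of the 31-base words in the Hist1h2ap transcript, 6.64% occur in no other gene, and the gene shares such words with 25 others. Hist1h2ao, the other copy with the A run, had under 10 estimated reads in all libraries together. In the second source, a table of reads per 25-base bin for the whole series, the same copy had 1575, 1983 and 2317 reads in nano-TiO2 pools and 7414, 4379 and 4087 reads in sham pools. The table also held more H2A reads in all. Its 18 H2A genes summed to 14130, 16645 and 20057 reads in nano-TiO2 libraries and 60272, 35176 and 33517 reads in sham libraries, against estimates of 7289, 8531 and 10341 reads in nano-TiO2 and 29767, 16813 and 16674 reads in sham libraries. For H1 the sums lay close together, with 606 reads in the table and 600 in the estimates in nano-TiO2 pool 1. Whether the table counts a shared read at more than 1 copy was not tested. A call for 1 copy is a call for a group of near-identical genes.

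Among the other H2A genes, Hist1h2ak (log2 fold change -1.38), Hist1h2ae (-1.29), Hist1h2an (-2.35) and Hist2h2aa1 (-0.90) were lower. Hist1h2ae, in which 52.1% of 31-base words occur in no other gene, had 12.6, 17.9 and 13.2 CPM in nano-TiO2 pools, against 40.5, 36.7 and 29.8 CPM in sham pools. The groups stood well apart, with an edgeR adjusted p of 0.00721. Hist2h2aa1, of the Hist2 cluster, had 12.3, 13.4 and 13.9 CPM in nano-TiO2 pools and 20.9, 29.5 and 23.4 CPM in sham pools, with an edgeR adjusted p of 0.0116. Without sham pool 2 that adjusted p became 0.0502. Hist1h2an rested on few reads, with 1.21, 0.94 and 0.21 CPM in nano-TiO2 pools against 2.32, 5.24 and 4.27 CPM in sham pools (edgeR adjusted p = 0.023). Without sham pool 2 its adjusted p was 0.074.

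Hist3h2a, the H2A gene of the Hist3 cluster, did not pass. It had 42.9, 39.1 and 43.0 CPM in nano-TiO2 pools and 44.8, 50.6 and 56.2 CPM in sham pools. The groups nearly touched, and the log2 fold change was -0.28 (SE 0.14, edgeR adjusted p = 0.161). Hist1h2aa, Hist1h2ag, Hist1h2ah and Hist1h2ai were tested and did not pass, with log2 fold changes between -1.82 and 0.34. Their levels overlapped between the groups in all 4 cases.

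In the H2B class 1 of 9 tested genes was lower. Hist1h2bm had 0.24, 0.50 and 0.21 CPM in nano-TiO2 pools and 1.28, 1.20 and 0.81 CPM in sham pools (log2 fold change -1.80, SE 0.51, edgeR adjusted p = 0.0316). These values rest on 3.9 to 7.8 estimated reads in nano-TiO2 and 16.1 to 26.8 in sham libraries, and the call held in 2 of the 6 fits that each left out 1 library. Hist1h2bc, which took 62.3% of the H2B reads, had 28.3, 22.9 and 26.0 CPM in nano-TiO2 pools, against 30.2, 37.0 and 29.0 CPM in sham pools. Its log2 fold change of -0.32 did not pass (SE 0.16, edgeR adjusted p = 0.174). Hist2h2be, which is known to be made as a polyadenylated RNA in resting cells, had 4.92, 3.69 and 5.71 CPM in nano-TiO2 pools and 2.08, 4.71 and 4.07 CPM in sham pools. The groups overlapped, and the log2 fold change of 0.41 did not pass (SE 0.35, edgeR adjusted p = 0.401). On log2(TPM + 1) values it did pass in limma, at 0.65 and an adjusted p of 0.0263, as the 1 histone gene higher on that scale, where 38.0% of all genes were higher and 0.134% lower. The other tested H2B genes were Hist1h2be, Hist1h2bj, Hist1h2bk, Hist1h2bl, Hist1h2br and Hist3h2ba, with log2 fold changes between -1.22 and 0.92, and none passed.

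The H3 and H4 genes were read far less. None of the 5 tested H3 genes passed edgeR's test, 1 had an unadjusted p under 0.05, and DESeq2 and limma-voom also called 0. That gene was Hist2h3c1, with 0.49, 1.12 and 0.70 CPM in nano-TiO2 pools and 0, 0.30 and 0.20 CPM in sham pools. It was the only tested member whose nano-TiO2 pools all lay above its sham pools, as 23.3% of all tested genes did, with a log2 fold change of 2.27 (SE 0.83, edgeR adjusted p = 0.0725). In the series table the same gene had a log2 fold change of -0.04, and 0% of its 31-base words occur in no other gene. Hist1h3d, Hist1h3h, Hist1h3i and Hist2h3b had values between -0.39 and -1.37, with standard errors up to 1.28.

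Of 4 tested H4 genes, 2 were lower. Hist1h4d, in which 85.3% of 31-base words occur in no other gene, had 1.64, 1.31 and 1.28 CPM in nano-TiO2 pools and 6.47, 5.54 and 3.77 CPM in sham pools. The sham pools were all higher, and the log2 fold change was -1.90 (SE 0.31, edgeR adjusted p = 0.008). Hist4h4, the single Hist4 gene, had 0.49, 0.44 and 0.45 CPM in nano-TiO2 pools and 1.28, 1.05 and 1.58 CPM in sham pools (log2 fold change -1.49, SE 0.40, edgeR adjusted p = 0.0272). It rested on 7.4 to 10.8 estimated reads in nano-TiO2 and 14.3 to 31.3 in sham libraries, and passed in 0 of the 6 fits without 1 library. Hist1h4h and Hist1h4i, at -0.69 and -0.59, did not pass.

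The remaining 36 genes did not pass the filter on low values in the estimated reads, although 30 of them passed it in the series table, which gave Hist1h2ao 21755 reads, Hist1h2ad 8144 and Hist1h2ab 8064 over the 6 libraries. In the estimates, 24 had between 11.7 and 61.6 estimated reads in the 6 libraries together: Hist1h1a, Hist1h1d, Hist1h2ac, Hist1h2ad, Hist1h2af, Hist1h2bb, Hist1h2bg, Hist1h2bh, Hist1h2bp, Hist1h2bq, Hist1h3a, Hist1h3b, Hist1h3c, Hist1h3e, Hist1h3f, Hist1h3g, Hist1h4a, Hist1h4c, Hist1h4j, Hist1h4n, Hist2h2ac, Hist2h2bb, Hist2h3c2 and Hist2h4. A further 10 had under 10 reads but above 0: Hist1h1t, Hist1h2ab, Hist1h2ao, Hist1h2bf, Hist1h2bn, Hist1h4b, Hist1h4f, Hist1h4k, Hist1h4m and Hist2h2ab. The estimates gave 0 reads in every library for Hist1h2ba, a testis H2B gene, and for Hist2h2aa2, in which 0% of 31-base words occur in no other gene. The series table gave Hist2h2aa2 reads in every library, up to 268 in nano-TiO2 and 500 in sham, so its 0 in the estimates is not an absence of matching reads. For Hist1h2ba the table gave 18, 20 and 43 reads in nano-TiO2 libraries and 27, 21 and 32 reads in sham libraries. The groups overlapped, and the log2 fold change of -0.03 did not pass (edgeR adjusted p = 0.951).

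Sums over a class of the estimated reads do not depend on how reads were divided among its copies. They can still depend on overlapping genes outside the class. Hist1h1e shares exonic bases on the same strand with the H2B gene Hist1h2be and with Gm11398. H2A summed to 443, 533 and 428 CPM in nano-TiO2 pools, against 1407, 1258 and 849 CPM in sham pools. The log2 ratio of the group means was -1.32, and the SD between pools of a group was 0.30 on that scale. H1 summed to 36.4, 40.4 and 42.1 CPM in nano-TiO2 pools and to 72.0, 83.8 and 74.3 CPM in sham pools, a log2 ratio of -0.95 with an SD of 0.11. In both sums every nano-TiO2 pool lay below every sham pool in CPM, and no test was made. Both ratios were smaller with library totals only and in summed TPM, as given at the end.

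H4 summed to 7.90, 6.56 and 6.33 CPM in nano-TiO2 pools, against 14.7, 13.0 and 15.4 CPM in sham pools, a log2 ratio of -1.05 with an SD of 0.15. H3 summed to 2.92, 4.81 and 3.14 CPM in nano-TiO2 pools and 6.43, 7.41 and 5.29 CPM in sham pools, a log2 ratio of -0.82 with an SD of 0.33. H2B was nearest to even, with 42.8, 38.5 and 43.7 CPM in nano-TiO2 pools and 46.5, 60.8 and 45.9 CPM in sham pools. Its log2 ratio was -0.29 with an SD of 0.18, and it turned to 0.14 with library totals as the only scaling and to 0.30 in summed TPM. No sum over members was tested. All tested genes had a median log2 fold change of 0.41 with library totals alone, against -0.01 with TMM, so that scaling shifts every ratio upward. Even so, 7 histone genes were called lower by edgeR with library totals alone, when 0.359% of all genes were lower and 30.7% higher, and 1, Hist2h3c1, was higher.

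By cluster, Hist1 had a log2 ratio of -1.32 (SD 0.29), carried by Hist1h2ap with 78.2% of its reads. Hist2 had -0.63 (SD 0.22), with 74.9% of its reads on Hist2h2aa1. Hist3 had -0.27 (SD 0.13), with 96% of its reads on Hist3h2a, and turned to 0.15 with library totals alone and to 0.39 in summed TPM. Hist4 is Hist4h4 alone, whose values are given with the H4 genes. Calls were made for 8 of 24 tested Hist1 genes, 1 of 4 Hist2 genes, 0 of 2 Hist3 genes and the 1 Hist4 gene, all lower. Cluster and class are tied together here, because the Hist3 genes are H2A and H2B genes and the Hist4 gene is an H4 gene.

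**Figure D2:**
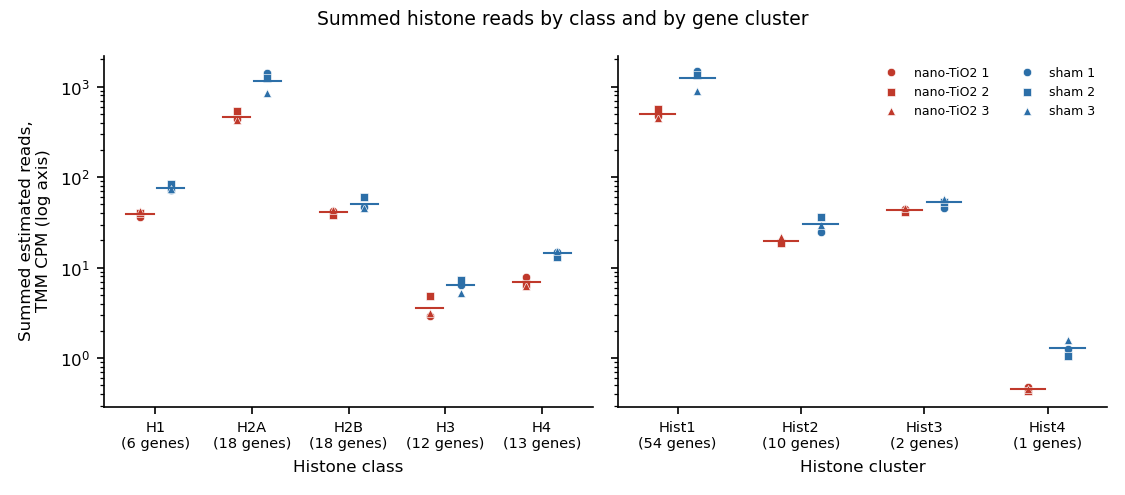
Summed CPM of estimated reads (log axis) for the 5 histone classes and the 4 clusters, with nano-TiO2 pools in red to the left, sham pools in blue to the right and lines at group means. Every nano-TiO2 pool lies below every sham pool in each sum, narrowly in H2B and Hist3, whose ratios turn above 0 with library totals alone or in summed TPM.

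Histone reads made up a small part of each library. The 67 genes drew 0.0582%, 0.0780% and 0.0591% of estimated reads in nano-TiO2 libraries 1 to 3, against 0.145%, 0.112% and 0.0868% in sham libraries 1 to 3. Hist1h2ap was 65.3%, 68.4% and 63.3% of these histone reads in nano-TiO2 libraries and 78.3%, 74.4% and 69.3% in sham libraries.

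The series table tested 59 of the 67 genes, and 23 were lower and 0 higher (edgeR, adjusted p under 0.05). Over all 18850 genes of that source, 11.2% were called lower and 15.4% higher. No histone gene was higher there at an unadjusted p under 0.05, and DESeq2 called 23 lower and 0 higher, against 14.3% and 16.8% of all genes. All 10 genes lower in the estimated reads were lower in the table. A further 9 were not tested in the estimated reads, and 4 were tested there without passing. The table comes from the same libraries, so this is a second way of counting and not a second experiment. Of its 23 lower genes 16 were H2A genes, with log2 fold changes between -1.63 and -0.98, and these copies share reads. Hist1h1d was among the added genes, with 26, 40 and 42 reads in nano-TiO2 and 90, 71 and 78 reads in sham libraries (log2 fold change -1.15, SE 0.28, edgeR adjusted p = 0.0187). The H3 genes gave 0 calls of 8 tested in edgeR and also in DESeq2. At an unadjusted p under 0.05, 4 were lower in edgeR and 2 in DESeq2, but all genes were not counted at that threshold.

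**Figure D3:**
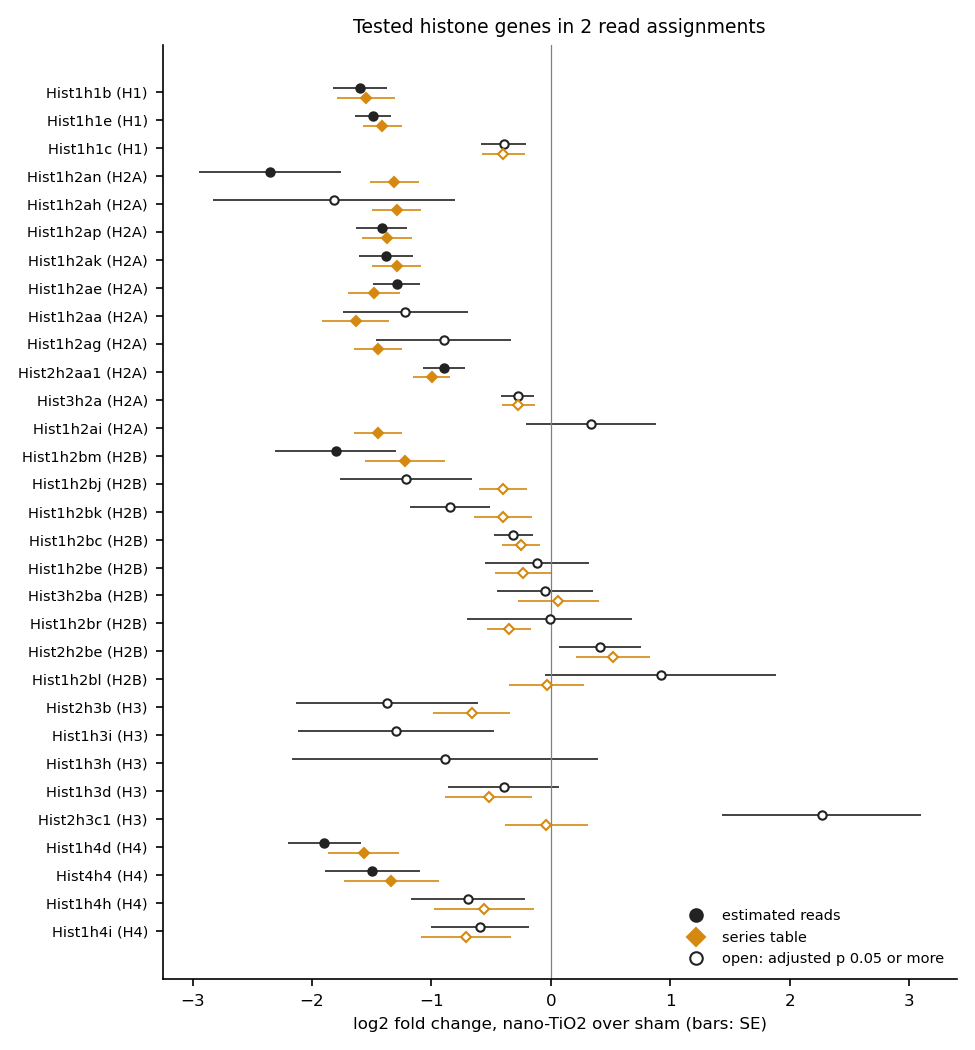
Log2 fold change of nano-TiO2 over sham, with standard error, for the 31 histone genes tested in estimated reads (black circles) and for the same genes in the series table (orange diamonds, where tested). Filled symbols passed at an adjusted p under 0.05. All filled symbols lie left of 0. The sources lie on opposite sides of 0 for Hist1h2ai, Hist1h2bl, Hist2h3c1 and Hist3h2ba.

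Where reads lay along the transcript differed between members. The table's bins allow reads to be placed before or after the stem-loop, where the annotated transcript runs on for 300 bases or more. A limit is that few reads are recorded near transcript ends, with a median of 1.67% within 200 bases of the 3′ end over 15719 genes. Hist1h1e has 1153 annotated bases after its stem-loop, and 1.50% of its reads lay there. Hist1h4d has 770 bases there with 5.33% of its reads, and Hist4h4 has 2445 bases with 4.69%. In all of these genes, which were lower in nano-TiO2 hearts, reads were concentrated before the stem-loop.

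Hist1h1c and Hist3h2a, neither of which passed the main test, had many of their reads beyond the loop. Hist3h2a did pass as lower once the length and GC trend described below was removed. It then stood at -0.61 in estimated reads (edgeR adjusted p = 0.0436) and -0.64 in the series table (0.0326). In Hist1h1c, 42.9%, 40.3% and 49.5% of reads lay after the stem-loop in nano-TiO2 pools, against 37.2%, 42.7% and 40.3% in sham pools. In Hist3h2a the shares were 35.8%, 33.7% and 40.2% in nano-TiO2 and 36.0%, 34.0% and 31.9% in sham pools. The groups overlapped in both genes. Among the other genes with at least 100 reads they did not overlap in 2, which went in opposite directions. Hist2h4, with 33 reads over the 6 libraries, also had groups that did not overlap. Its shares were 100%, 66.7% and 33.3% in nano-TiO2 pools, against 28.6%, 0% and 0% in sham pools. How often such shares fail to overlap over all genes was not counted, so no result is read from these genes. Hist2h3c1 had 38.5%, 55.6% and 40.7% of its reads after the loop in nano-TiO2 pools, against 0%, 16.7% and 15.0% in sham pools. These shares rest on 13, 18 and 27 reads in nano-TiO2 and 20, 18 and 20 reads in sham libraries, in a gene where no 31-base word is its own. Hist1h4c had 5.00%, 0% and 5.88% in nano-TiO2 pools and 10.0%, 14.3% and 15.8% in sham pools, of at most 38 reads in a library. For Hist1h1c the log2 ratio of group means was -0.50 before and -0.27 after the loop, and for Hist3h2a it was -0.34 before and -0.16 after. Hist3h2a shares exonic bases with Trim17 on the same strand, so reads downstream of its loop may belong to either gene. Hist2h2be, with no stem-loop match in its transcript, had a median read position of 1513 in 2620 bases. No test was made of the position of reads, and Hist1h2bh, with reads almost wholly before its loop, was not lower in the table (log2 fold change -0.20, edgeR adjusted p = 0.484).

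**Figure D4:**
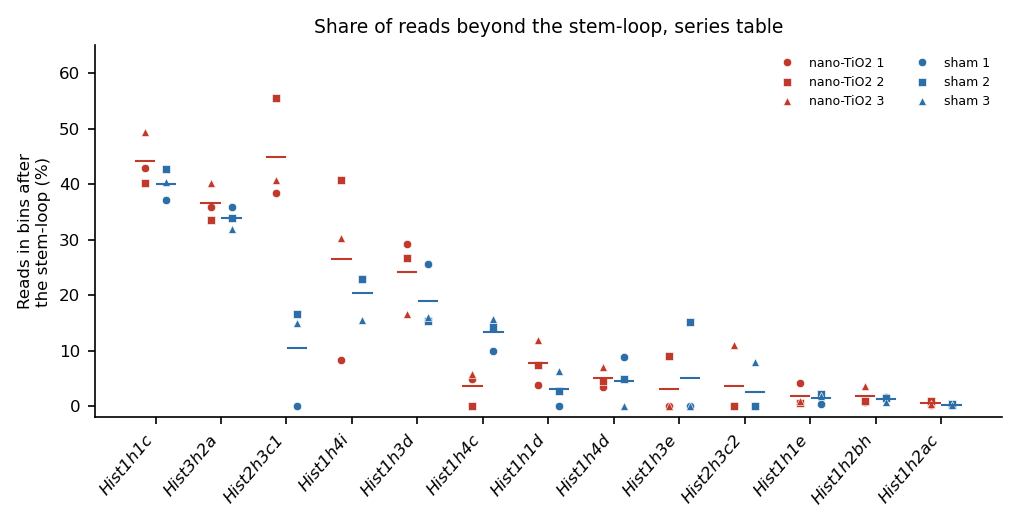
Percentage of a gene's reads in bins after the stem-loop in the series table, for the 13 histone genes with at least 300 annotated bases after it and at least 100 reads, with nano-TiO2 pools in red to the left, sham pools in blue to the right and lines at group means. Hist1h1c and Hist3h2a stand above 30% in every pool, while Hist1h1e, Hist1h2bh and Hist1h2ac stay under 5%.

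Gene length and base composition moved with the comparison over all genes, and histone genes are at the extreme of both. The 31 tested members had a median transcript length of 586 bases and a median GC content of 57.8%, against 2723 bases and 50.6% over all tested genes. Of genes in the shortest quintile 34.3% were called lower, and of those in the quintile of highest GC content 29.9% were. Genes in both quintiles numbered 746, had a median log2 fold change of -0.56, and 48.5% of them were lower. That share is above the 32.3% of tested histone genes, 17 of which are among the 746.

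With a smooth trend on length and GC content removed, 4 histone genes were lower and 0 higher, against 1.25% of all genes lower and 0.416% higher. These were Hist1h1e at -1.42 (edgeR adjusted p = 0.00912), Hist1h4d at -1.90 (0.0335), Hist4h4 at -1.95 (0.0497) and Hist3h2a at -0.61 (0.0436). Hist1h1e and Hist1h4d thus had much the same fold change with and without the trend. A limit is that the trend used the length and GC content of annotated transcripts. Those of Hist1h1e (1930 bases), Hist1h4d (1138) and Hist4h4 (2863) run far past the stem-loop, where few of their reads lay. How these genes would stand with the length of the RNA sequenced was not tested. Hist1h1b changed to -0.87 with an adjusted p of 0.0551, Hist1h2ap to -0.47 with 0.221, and Hist2h2aa1 to -0.01 with 0.982. The median of the tested members was -0.31 after removal. After the same removal, 8 histone genes were lower and 0 higher in the series table, against 1.82% and 0.947% of all genes. All 4 genes lower in the estimated reads were among them. The trend there used the same annotated lengths and GC content, so the limit holds there too. Hist1h2ac, annotated at 2482 bases, went from -1.48 to -1.91 there. Hist1h2ab, annotated at 473 bases, went from -1.35 to -0.50 and did not pass. Hist1h2ai, annotated at 393 bases, passed at -0.80. The cause of the trend was not tested.

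**Figure D5:**
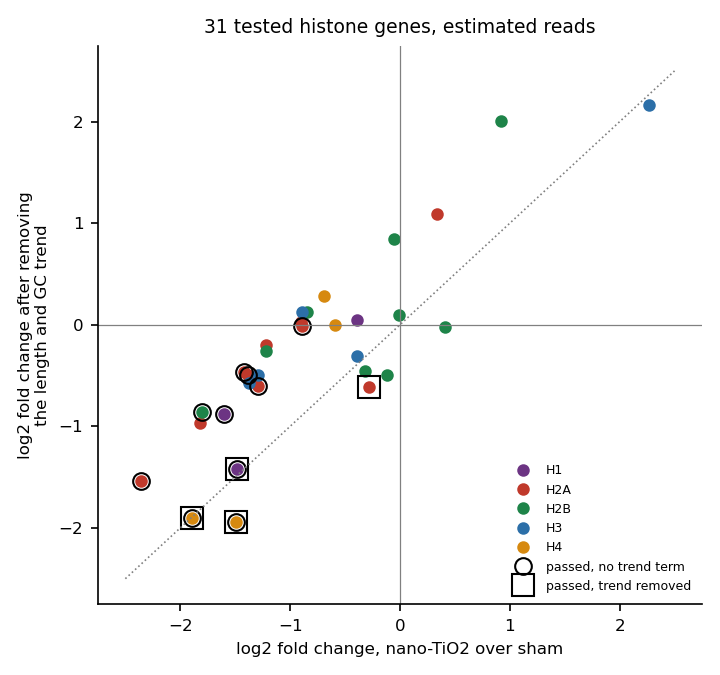
Log2 fold change of nano-TiO2 over sham for the 31 tested histone genes before (horizontal) and after (vertical) removal of the trend on transcript length and GC content, coloured by class, with the dotted line marking equal values. Circles ring the 10 genes that passed before and squares the 4 that passed after removal, and most H2A genes move up toward 0 while Hist1h1e, Hist1h4d and Hist4h4 stay below -1.

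Of 23 tested genes for histone mRNA processing 6 were lower and 4 higher in edgeR, with a median log2 fold change of 0.10. The background for this list and for those that follow is the 12.8% of all genes called lower and the 15.5% called higher by the same test, at a median of -0.01. Slbp, which encodes the stem-loop binding protein, averaged 87.1 ± 6.95 CPM in nano-TiO2 and 77.6 ± 6.92 CPM in sham hearts (log2 fold change 0.17, SE 0.13, edgeR adjusted p = 0.349). Npat, the coactivator of the clusters, stood at 0.57 (adjusted p = 0.0874) and the U7 subunit Lsm11 at 0.16 (0.638). Lsm10, the other U7-specific subunit, was lower at -0.43 (edgeR adjusted p = 0.037), as were the shared Sm proteins Snrpe (-0.86), Snrpd3 (-0.58) and Snrpb (-0.62). Cstf2t, Cpsf2, Hinfp and Ncbp2 were higher, at 0.74, 0.71, 0.66 and 0.49. Hinfp encodes a transcription factor of H4 genes. With the trend on length and GC content removed, Lsm10 stood at 0.17 (edgeR adjusted p = 0.466), Cpsf2 at -0.15 (0.613) and Snrpb at 0.0048 (0.989), so that these 3 turned to the other side of 0.

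Of 22 histone chaperones 2 were lower and 5 higher, with Asf1b (-0.50) and the importin Ipo4 (-0.59) lower and Ubn2 (1.23), Set (0.66), Supt16 (1.03) and Ubn1 (0.59) among the higher ones. Of 11 genes listed as replication-independent variants, 5 were lower and 0 higher in edgeR, and 0 were higher at an unadjusted p under 0.05 or in DESeq2 and limma-voom. H2afz averaged 752 ± 63.3 CPM in nano-TiO2 and 1313 ± 116 CPM in sham hearts (log2 fold change -0.80, SE 0.13, edgeR adjusted p = 0.00761). H2afx (-0.72), H2afj (-0.70) and H2afv (-0.44) were also lower, as was the centromeric variant Cenpa (-0.41), which turned to 0.0090 with library totals alone. H3f3a at -0.32 and H3f3b at 0.11, both encoding H3.3, did not pass.

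Of 39 genes of S phase and DNA replication 7 were lower and 0 higher, with a median of -0.30, and 2 were higher at an unadjusted p under 0.05, 1 of which passed in DESeq2 and 0 in limma-voom. Rpa3 (-0.73), Gins1 (-0.64), Rfc4 (-0.71) and Gins2 (-0.44) had the smallest p-values, and Pcna, the replication clamp, stood at -0.28 (adjusted p = 0.101). Of 25 genes of G2 and mitosis 5 were lower and 3 higher. Cdk1 (-0.58), Cdc20 (-0.64), Aurka (-0.56) and Plk1 (-0.66) were among the lower ones, Top2a (0.55), Ect2 (0.88) and Kif23 (0.56) were higher, and Mki67 at 0.61 did not pass (adjusted p = 0.0885). Once the trend on length and GC content was taken out, Top2a turned to -0.18 (edgeR adjusted p = 0.436), and these 5 lists together had 6 genes lower and 0 higher.

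Markers of some other cell types also differed between pools. The 17 erythroid markers summed to 93387, 45592 and 83659 CPM in nano-TiO2 pools, against 133139, 300293 and 121084 CPM in sham pools. Of 15 tested, 8 were lower in edgeR and in DESeq2, and 2 in limma-voom. Sham pool 2 had the most erythroid RNA. Among the histone sums, H1, H2B, H3 and Hist2 were highest in the same pool, H2A and Hist1 in sham pool 1, and H4, Hist3 and Hist4 in sham pool 3. The 15 cardiomyocyte markers were present in every pool, with 53647, 41096 and 50947 CPM in nano-TiO2 and 57879, 63053 and 67723 CPM in sham pools, and 7 were lower and 1 higher. Hepatocyte markers reached 1754 CPM in sham pool 2, against 39.1 to 93.4 CPM in nano-TiO2 pools and 80.6 and 160 CPM in the other sham pools. Lung epithelium markers reached 1526 CPM in nano-TiO2 pool 3 and 295 CPM in nano-TiO2 pool 2, against 0.304 CPM in nano-TiO2 pool 1 and 14.1 to 147 CPM in sham pools. Endothelial markers were nearly level, with 492, 498 and 500 CPM in nano-TiO2 pools and 510, 492 and 493 CPM in sham pools. In edgeR 2 of 8 were higher and 0 lower, and limma-voom called 1 lower. Fibroblast and mesenchyme markers had 3062, 2907 and 3104 CPM in nano-TiO2 and 3120, 2805 and 3369 CPM in sham pools. Of these 8, 1 was higher and 0 lower in edgeR, with 1 lower at an unadjusted p under 0.05. The part of these cells in the histone results was not tested. Without sham pool 2 alone 6 histone genes were lower, against 2.93% of all genes. Without both sham pool 2 and nano-TiO2 pool 3 the count was 0, when 0.0% of all genes were called lower. In that last edgeR fit 11 histone genes were lower at an unadjusted p under 0.05, a threshold at which all genes were not counted.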

How the data were processed

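The 6 input libraries were grouped by their titles. The estimated counts per transcript were made by Salmon and deposited by the authors unscaled, with TPM values beside them, per the file headers. The series table holds a signal per 25-base bin, which the authors had scaled with a constant for each library. Dividing by the smallest step gave whole reads (to within 0.001) for 100% of values. Tools named in the submitters' processing notes are DESeq2 1.34.0, Salmon 1.5.2 and HISAT2 2.2.1, and the build named is GRCm39. No source used here gives the strand setting, so reads from a histone gene and an antisense gene across it cannot be told apart.

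Estimated reads were summed per gene by GENCODE M21 (GRCm38; 115685 of 116747 transcripts matched) and rounded. The main test was edgeR 4.0.16 (R 4.3.3), quasi-likelihood, robust, with TMM and filterByExpr. Variation between pools was 23.9% (biological coefficient of variation) for the estimated counts and 22.3% for the table. In counts simulated from this comparison over 13704 genes, 45.9% of changes of 1 on the log2 scale were recovered and 100% of changes of 2, with 2 false calls. The simulated counts had the same dispersion for every gene and no length or GC trend. The 2 false calls therefore do not measure false calls in these libraries. The trend on length and GC content came from mgcv 1.9.3. DESeq2 1.42.0 and limma 3.58.1 were alternatives. TPM was tested as log2(TPM + 1) or log2(TPM + 0.1) where the mean TPM was at least 1. Single values come from every histone gene that passed the filter, plus read totals of those with 10 or more reads, and from each context list up to 4 called genes per direction and named anchor genes. The histone genes and the lists were chosen with earlier results of these data known.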

Additional observations from a re-analysis of the deposited data

How the results depend on the processing

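The counts of histone genes called lower were 10 in estimated reads and 23 in the series table. Leaving out 1 library in turn gave 6 to 11 and 19 to 25, with the lowest, 6, without sham pool 2. In estimated reads, the count lower was 4 after removing the length and GC trend, 5 on log2(TPM + 1), 5 on log2(TPM + 0.1), 2 with the replicate block and the trend removed together, and 0 without both sham pool 2 and nano-TiO2 pool 3. In the table it was 8 with the trend removed. One histone gene was called higher with library totals only (1 in estimated reads, Hist2h3c1, and 1 in the table, Hist2h2be), and 1 (Hist2h2be) on either TPM scale. The replicate block alone gave 8 and 21 lower. The share of all genes called was not counted for log2(TPM + 0.1), the replicate blocks or library totals in the table. Nor was it counted for fits without 1 library, except without sham pool 2 in estimated reads. Those counts therefore have no background beside them. Same-numbered pools correlated at -0.39, 0.02 and -0.08 in their deviations from the group means. Deviations within a group of 3 depend on one another, so these values cannot tell whether same-numbered pools were handled together. Over the 5 context lists, 25 lower and 12 higher became 6 and 0 with the trend removed, 0 and 35 with library totals only and 13 and 5 with the replicate block, and ranged over 5 to 37 lower and 3 to 14 higher with 1 library left out. With library totals only and in summed TPM, the log2 ratios were -0.52 and -0.37 for H1, -0.90 and -0.66 for H2A, 0.14 and 0.30 for H2B, -0.37 and -0.34 for H3, -0.65 and -0.23 for H4, -0.89 and -0.65 for Hist1, -0.20 and -0.14 for Hist2, 0.15 and 0.39 for Hist3, and -1.09 and -0.88 for Hist4. Hist2 was -0.85 in the table. The cause of these moves was not tested, except that fewer samples enter where a library is left out. Single histone genes stayed on the same side of the threshold in 1264 of 1377 comparisons with an alternative, and no called histone gene changed sign. Genes that passed in neither fit were counted as staying whatever their sign. Hist1h1c, for example, went from -0.39 to 0.05 in estimated reads with the trend removed. The 120 tested genes of the context lists stayed on the same side in 1055 of 1320, and 7 that passed the test before or after the change of setting changed sign. These were, with the trend removed, Lsm10 (0.17), Cpsf2 (-0.15), Snrpb (0.0048), Anp32e (-0.051), Top2a (-0.18) and Cenpe (-0.96), and with library totals only Cenpa (0.0090). Genes with under about 10 reads per library are limited by depth.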
